A study of Homo sapiens with 18 samples.

Results

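The 33 genes described here encode the proteins of the small (40S) subunit of the cytosolic ribosome. They were taken from the 57865 genes of the GENCODE 29 annotation by symbol, as protein-coding genes named RPS with a number and at most a suffix of A, X or L, together with RPSA and FAU and without the Y-linked copies and the RPS6 kinases. Of the 33 proteins, 14 sit in the head of the subunit and 19 in its body and platform. RPS27L, a close paralogue of RPS27, was counted with the body. The genes are scattered over the genome: on GRCh38, as annotated by GENCODE 29, RPS2 lies at chr16:1962052-1964860 and RPS15A at chr16:18781295-18790383 (both minus strand), RPS14 at chr5:150442635-150449756 and RPS4X at chrX:72255679-72277300 (both minus strand), and RPS19 at chr19:41859918-41872926 and RPS3 at chr11:75399486-75422280 (both plus strand).

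RNA was measured in extracellular vesicles (EVs), the membrane particles that cells release, and in the HEK293T cells that released them. HEK293T is a transformed line derived from human embryonic kidney. Each group held 3 libraries labelled as biological replicates, which gave 18 libraries: ATG7-/- EVs, ATG12-/- EVs and WT EVs, then ATG7-/- cells, ATG12-/- cells and WT cells. The ATG7-/- line is 1 clone (F2) and the ATG12-/- line is 1 clone (D9), so genotype and clone cannot be told apart. All 6 groups, WT included, had been without serum for 24 h. ATG7 is the activating enzyme of the LC3 conjugation machinery and ATG12 is joined to ATG5 to form part of its ligase, and the knockouts ask whether that machinery affects which RNAs reach EVs. How the EVs were purified is not given in the sources used here.

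The values are TPM (transcripts per 1000000), each a share of each library corrected for transcript length, so levels of different genes can be set side by side. TPM keep no read depth, so the depth behind each value is unknown and no counting interval is given. In bulk samples expressed as shares, a different number of cells or vesicles and a different amount of RNA in each cannot be told apart. The targeted gene ATG7 had 15.6, 13.5 and 11.2 TPM in ATG7-/- EVs, against 19.4, 14.9 and 13.3 TPM in WT EVs, and 8.06, 11.2 and 12.9 TPM in ATG7-/- cells, against 8.14, 11.1 and 13.1 TPM in WT cells. The targeted gene ATG12 had 0, 0.858 and 0 TPM in ATG12-/- EVs, against 0.844, 9.54 and 22.6 TPM in WT EVs, and 6.71, 9.18 and 5.18 TPM in ATG12-/- cells, against 10.1, 7.61 and 13.5 TPM in WT cells. Neither transcript level separated a knockout from WT in cells, and a sum over transcripts need not fall when a frame is broken, so these values do not check the knockout labels. Of 4 markers of HEK293 cells (NEFL, NEFM, PAX2 and VIM), 3 averaged at least 1 TPM in cells and PAX2 did not. Of 7 markers of other cell types, 3 averaged at least 1 TPM in cells (COL1A1 at 7.23, PTPRC at 1.42 and HBA1 at 1.02 TPM), CD14, HBB and ALB were at 0 in every library, and the summed list stood at 1.27 to 20.6 TPM in EVs and 4.49 to 25.5 TPM in cells.

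Ribosomal proteins of the small subunit bind 18S rRNA in the nucleolus, and the finished subunit decodes mRNA in the cytoplasm. Their mRNAs are short, abundant and stable, and most begin with a terminal oligopyrimidine (TOP) tract, a C followed by an unbroken run of C and T. LARP1 and mTOR act through this tract: when nutrients or growth factors are withdrawn, TOP mRNAs leave polysomes and are kept as untranslated particles. Cells without serum are a setting in which this class is known to be held back from translation.

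RefSeq promoter windows (GRCh38.p14) were found for 26 of the 33 genes, and they are shown because the tract at the first base is the feature these mRNAs share. The motif searched was a C at the annotated start followed by at least 4 bases that are each C or T. It was found in 19 of the 26 genes (73.1%), against 5.14% of all genes and 69% of the large-subunit ribosomal protein genes in the same table. On the other strand it was found in 0% of the members' windows and 2.07% of all windows. Each line gives 10 bases before the start and 20 from it, 5′ to 3′, and capitals mark the run of C and T that begins at the start.
RPS19 (chr19:41860245-41860274, plus strand): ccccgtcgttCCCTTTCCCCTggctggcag
RPS14 (chr5:150449720-150449749, minus strand): ccctcccactCTCTCTTTCCggtgtggagt
RPS3 (chr11:75399508-75399537, plus strand): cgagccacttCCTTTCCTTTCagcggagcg
RPS3A (chr4:151099618-151099647, plus strand): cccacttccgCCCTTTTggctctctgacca
RPSA (chr3:39406710-39406739, plus strand): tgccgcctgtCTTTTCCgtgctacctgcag
RPS27 (chr1:153990752-153990781, plus strand): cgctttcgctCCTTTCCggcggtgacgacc
RPS4X (chrX:72277229-72277258, minus strand): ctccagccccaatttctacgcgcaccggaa
RPS26 (chr12:56041908-56041937, plus strand): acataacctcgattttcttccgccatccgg
RPS27L (chr15:63157458-63157487, minus strand): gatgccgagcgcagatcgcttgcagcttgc
The first 6 hold the tract and the last 3 do not at the annotated start. RPS27 holds it and was at or near 0 in every library, whereas RPS4X lacks it in this window and was among the most abundant members. The sequences were chosen after the values were seen.

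As a group, the 33 mRNAs took a larger share of the EV libraries than of the cell libraries. Their summed level was 10401 to 12864 TPM in the 9 EV libraries (median 11908) and 1148 to 3253 TPM in the 9 cell libraries (median 1859), with no overlap. As a share of all TPM that was 1.04 to 1.29% in EVs and 0.115 to 0.325% in cells, and the ratio of the means was 6.17. All protein-coding genes together made up 35.3 to 39.3% of EV libraries and 21.6 to 25.8% of cell libraries, so the wider class was also higher in EVs, with a ratio of means of 1.61.

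The levels were very unequal among the members in both compartments. The median of the members' means was 132 TPM in EVs and 30.9 TPM in cells, and 19 members averaged at least 100 TPM in EVs, against 5 in cells. Just 3 genes, RPS2, RPS4X and RPS19, made up 51.4 to 60.6% of the members' summed TPM in EVs and 37.1 to 49.4% in cells, with no overlap. The order of levels was close in EVs and cells (Spearman's rho of 0.88 between the mean levels of 33 genes, which share libraries and are not independent). Of the members, 29 were above 0 in all 18 libraries, and RPS12, RPS21, RPS26 and RPS27 were listed at 0 in at least 1.

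EVs were compared with cells in 1 fit over all 24647 genes that passed the filter (at least 1 TPM in at least 3 libraries), after scaling the libraries by a median of ratios and with the 3 genotypes weighted equally. All 33 members passed the filter. With limma and Benjamini-Hochberg adjustment over all genes tested, 24 of the 33 members rose in EVs relative to cells, where 7.66% of all genes tested were called higher. Another 2 members, RPS26 and RPS27L, fell, where 36.4% of all genes were called lower, and 7 passed in neither direction. Of 13998 protein-coding genes tested, 1632 were called higher and 3393 lower. The members' median log2 fold change on scaled TPM + 1 was 1.89, beside -0.61 over all genes tested and -0.19 over the protein-coding genes. Every EV library was above every cell library for 19 members, where 1.95% of all genes tested had that pattern, and the other 14 members overlapped. The pseudocount of 1 makes these fold changes understate those of low genes.

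Members of the body and platform held the largest differences, and 13 of the 19 rose while 2 fell (median log2 fold change 1.56). RPS15A, a core protein of the body, had 405 TPM at the lowest, 466 at the median and 688 at the highest in EVs, against 20.7, 32.4 and 81.1 TPM in cells. The lowest EV library was several times above the highest cell library, and the log2 fold change was 3.54 ± 0.23 (SE, limma adjusted p = 2.92e-08). RPS2, which lines the channel where mRNA enters the subunit, had 1874, 2524 and 3143 TPM in EVs, against 102, 218 and 409 TPM in cells. The groups did not overlap and the log2 fold change was 3.17 ± 0.19 (adjusted p = 9.87e-09).

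RPS14, a platform protein whose gene lies in the region lost in 5q- syndrome, had 646, 846 and 1187 TPM in EVs, against 50.1, 66.2 and 226 TPM in cells. It was higher in all EV libraries, with a log2 fold change of 2.97 ± 0.13 and the smallest adjusted p among the members (3.31e-10). RPS4X, the X-linked member, had 2124, 2342 and 2747 TPM in EVs, against 164, 304 and 654 TPM in cells. Its EV libraries lay within a narrow range and its log2 fold change was 2.72 ± 0.13 (adjusted p = 8.02e-10). RPS3A, which borders the platform, had 201, 266 and 315 TPM in EVs, against 18.1, 31.3 and 57.4 TPM in cells. RPSA, also known as the laminin receptor precursor, had 201, 288 and 380 TPM in EVs, against 21.6, 40.8 and 82.9 TPM in cells. Neither overlapped between EVs and cells, and their log2 fold changes were 2.74 ± 0.17 and 2.59 ± 0.20.

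RPS6, the classical substrate of the S6 kinases, stood closer in the compartments than those members, with 212, 243 and 349 TPM in EVs, against 45.0, 81.3 and 122 TPM in cells. Its groups still did not overlap, and its log2 fold change was 1.31 ± 0.16 (adjusted p = 2.32e-05). RPS9, which lines the mRNA entry, and RPS23 rose by log2 fold changes of 1.94 ± 0.29 and 1.89 ± 0.24, each with all EV libraries above all cell libraries. RPS23, a protein of the decoding centre, was 1 of the lower members, with 15.9, 36.6 and 77.6 TPM in EVs, against 3.74, 9.52 and 13.6 TPM in cells.

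FAU encodes RPS30 fused to a ubiquitin-like protein, and RPS24 is mutated in some Diamond-Blackfan anaemia families. Both rose with overlapping groups. FAU had 25.5, 39.9 and 102 TPM in EVs, against 10.1, 21.9 and 38.8 TPM in cells (log2 fold change 0.88 ± 0.25, adjusted p = 0.0101). RPS24 had 43.5, 80.1 and 112 TPM in EVs, against 20.8, 32.9 and 67.5 TPM in cells (0.79 ± 0.24, adjusted p = 0.0166). RPS13, a body protein near the platform, had 43.6, 177 and 339 TPM in EVs, against 65.3, 89.7 and 121 TPM in cells. Its lowest EV library, WT EVs 3, was below every cell library, and the call (0.65 ± 0.24, adjusted p = 0.0372) was lost in 12 of 25 alternative settings, 11 of which left out a library, with adjusted p up to 0.161.

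In the head, 11 of the 14 members rose and 0 fell (median log2 fold change 2.09). RPS19, the gene most often mutated in Diamond-Blackfan anaemia, had 804, 1557 and 2205 TPM in EVs, against 159, 237 and 510 TPM in cells. The groups did not overlap, and the log2 fold change was 2.28 ± 0.20 (limma adjusted p = 1e-06). RPS3, which helps to form the mRNA entry site, had 411, 568 and 970 TPM in EVs, against 50.7, 119 and 163 TPM in cells. Its log2 fold change was 2.25 ± 0.23 (adjusted p = 3.9e-06), and it was 1.42 (adjusted p = 0.115) when only transcripts annotated as protein_coding were summed. RPS15, which reaches the decoding site, had 238, 327 and 501 TPM in EVs, against 40.3, 59.9 and 119 TPM in cells, with a log2 fold change of 2.16 ± 0.19.

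RPS16, whose tail reaches the tRNA in the peptidyl site, had 109, 230 and 271 TPM in EVs, against 12.1, 43.0 and 62.8 TPM in cells, and rose by 2.20 ± 0.31 on the log2 scale. Its groups did not overlap. RPS18 and RPS10 rose by 2.02 ± 0.22 and 1.91 ± 0.29, also without overlap. RPS10 is 1 of the proteins that are ubiquitylated on stalled ribosomes.

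RPS28, which lies at the mRNA exit, was the most variable of the strongly raised members. It had 15.5, 146 and 254 TPM in EVs, against 3.26, 16.4 and 43.3 TPM in cells, and the lower WT EV libraries overlapped with cells. Its log2 fold change was 2.35 ± 0.42 (adjusted p = 0.000494). RPS12, a low member of the head, had 11.4, 15.7 and 29.3 TPM in EVs, against 0, 5.61 and 10.2 TPM in cells, where the 0 is that of WT cells 3. All EV libraries were above all cell libraries, and the log2 fold change was 1.50 ± 0.41 (adjusted p = 0.00913). The 15 pseudogenes named for RPS12 stood the other way, with overlap. They summed to 0 to 27.7 TPM in EVs (median 0) and 16.1 to 54.5 TPM in cells (median 39.8). How reads were split between RPS12 and these copies was not tested, so the rise is that of the gene's listed TPM alone.

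RPS25, which many viral internal ribosome entry sites need, had 40.7, 63.2 and 105 TPM in EVs, against 12.5, 27.3 and 135 TPM in cells. The 2 highest cell values belonged to ATG12-/- cells 2 and 3, and they came mostly from a short transcript. Its call (0.77 ± 0.30, adjusted p = 0.0471) was lost in 17 of 25 alternative settings, and the difference was -1.82 (adjusted p = 0.00723) when only protein_coding transcripts were summed. RPS25 is in the count of members that rose, and its direction depends on which transcripts are summed.

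RPS26, which contacts mRNA at the exit of the subunit, and RPS27L were the members called lower in EVs. RPS26 was listed at 2.54, 0 and 2.12 TPM in ATG7-/- EVs, 1.32, 0 and 0 TPM in ATG12-/- EVs and 0, 1.50 and 0 TPM in WT EVs, against 3.39, 0 and 4.76 TPM in ATG7-/- cells, 1.40, 2.86 and 0 TPM in ATG12-/- cells and 6.93, 4.01 and 3.63 TPM in WT cells. RPS27L, which p53 induces, had 0.736, 4.71 and 13.2 TPM in EVs, against 4.27, 6.03 and 34.4 TPM in cells, and the highest cell value was that of ATG7-/- cells 1. The 30 pseudogenes named for RPS26 summed to 0 to 167 TPM in EVs (median 52.2) and 0 to 77.7 TPM in cells (median 16.9), with overlap. How reads were split between RPS26 and these copies was not tested. Both RPS26 and RPS27L overlapped between EVs and cells. Their log2 fold changes of -1.17 ± 0.41 (adjusted p = 0.0306) and -1.09 ± 0.41 (adjusted p = 0.0444) lost the call in 11 and 15 of 25 alternative settings, among them TPM without scaling (adjusted p = 0.059 and 0.108).

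Among the 7 members called in neither direction were RPS7, RPS20, RPS21, RPS27, RPS27A and RPS29. RPS27A, a fusion of ubiquitin and a head protein, had 3.81, 44.5 and 95.1 TPM in EVs, against 7.47, 15.3 and 22.3 TPM in cells. RPS20 had 2.21, 22.5 and 81.9 TPM in EVs, against 2.30, 6.70 and 19.7 TPM in cells. The cell values of both lay within a narrower range than the EV values. The 17 pseudogenes named for RPS27A summed to 0 to 382 TPM in EVs and 94.3 to 534 TPM in cells. The 16 named for RPS20 summed to 0 to 119 TPM in EVs and 42.2 to 196 TPM in cells. In cells both sums were above the genes in every library, and how reads were split was not tested.

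RPS21 ranged from 0 in WT EVs 2 to 125 TPM in ATG12-/- EVs 3, against 13.6 to 51.0 TPM in cells. RPS29, a zinc-binding protein of the head, ranged from 0.62 TPM in WT EVs 1 to 101 TPM in WT EVs 2, against 8.47 to 18.1 TPM in cells. Within WT EVs alone, RPS29 therefore spanned its whole EV range. RPS27 was listed at 0 in 8 EV libraries and at 2.39 TPM in WT EVs 3, and at 0 in 6 cell libraries with 1.45, 2.81 and 0.92 TPM in the second library of ATG7-/-, ATG12-/- and WT cells.

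RPS7, a body protein that also binds MDM2, had 261, 145 and 99.1 TPM in ATG7-/- EVs, 192, 0.251 and 0.533 TPM in ATG12-/- EVs and 202, 154 and 106 TPM in WT EVs. Its cell values were 9.55, 23.9 and 25.2 TPM for ATG7-/-, 17.7, 23.3 and 25.7 TPM for ATG12-/- and 5.62, 10.8 and 8.03 TPM for WT. The EV libraries were above all cell libraries in 7 of 9, and ATG12-/- EVs 2 and 3 were below all of them. Its log2 fold change was 1.56 ± 0.74 (adjusted p = 0.0974), and it was 0.80 (adjusted p = 0.0236) without ATG12-/- EVs 1.

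**Figure D1:**
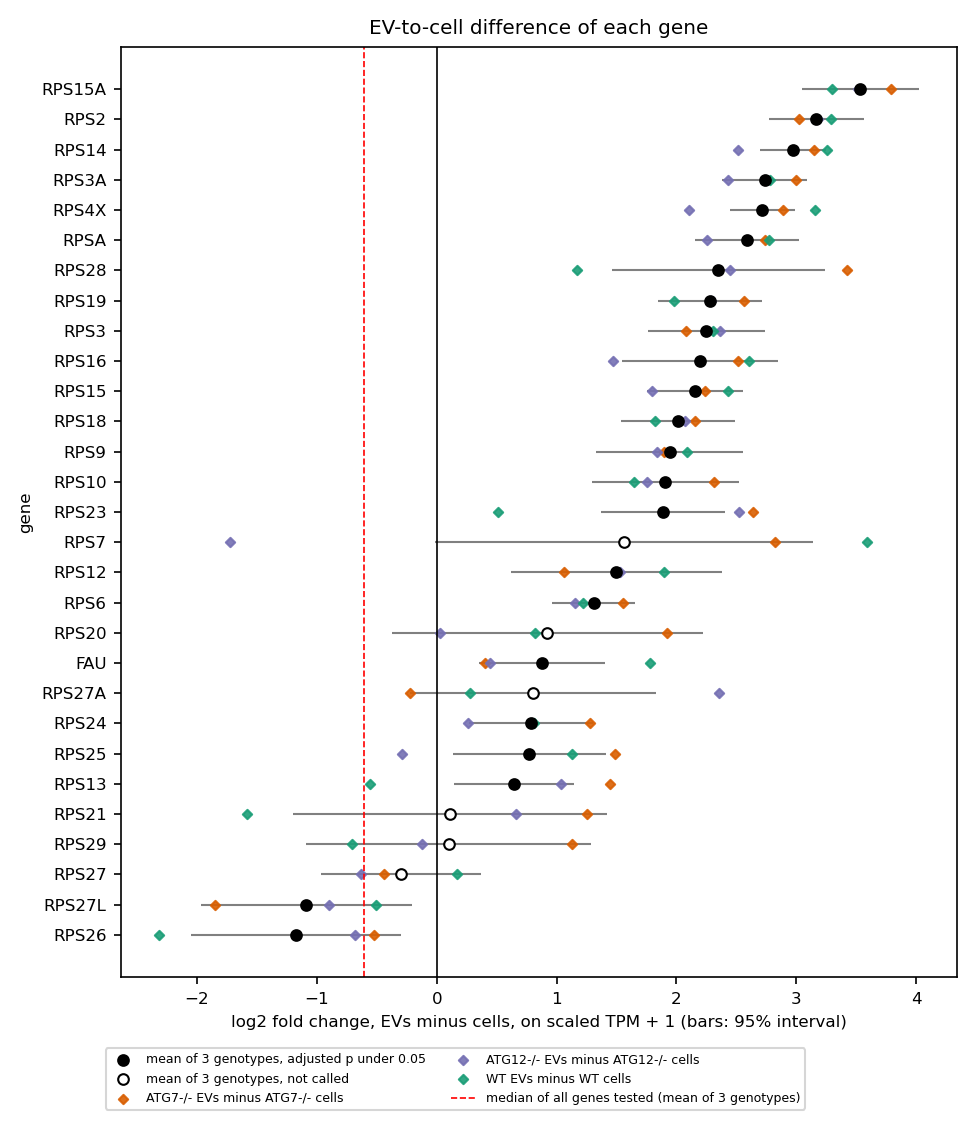
Log2 fold change of 29 of the 33 genes, EVs minus cells, on scaled TPM + 1: circles give the mean of the 3 genotypes with its 95% interval, filled where the adjusted p was under 0.05, and diamonds give each genotype alone. Those called higher lie between 0.65 (RPS13) and 3.54 (RPS15A), right of the dashed median of all genes tested (-0.61), and RPS7, RPS28 and RPS23 have the most separated genotypes among genes with a mean above 1.

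The difference was seen in each genotype. In ATG7-/- EVs 20 of the 33 members rose relative to ATG7-/- cells (2.71% of all genes tested were called higher) and 0 fell (8.69% were called lower). In ATG12-/- EVs 18 rose relative to ATG12-/- cells (2.27%) and 0 fell (8.9%). In WT EVs 18 rose relative to WT cells (4.03%) and RPS26 fell (20.7% of all genes were called lower), with a log2 fold change of -2.32 (adjusted p = 0.0281), a call lost in 6 of 25 alternative settings. At least 1 genotype called 21 members higher, all 3 called 16 of them, and 23 members were above 0 in all 3. RPS26 and RPS27L were below 0 in all 3. For these joint counts the shares over all genes tested were not computed, so they are descriptions.

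Whether the EV-to-cell difference itself changed with genotype was tested as an interaction. Of the 33 members, 0 were called for ATG7-/- minus WT (0.284% of all genes tested were called) and 0 for ATG12-/- minus WT (0.268%). At an unadjusted p under 0.05 there were 5 members (8.91% of all genes) and 8 members (10.1%). The members' median difference was 0.22 for ATG7-/-, beside 0.22 over all genes tested and 0.11 over the protein-coding genes. For ATG12-/- the members' median was -0.25, beside 0.19 over all genes tested and 0.04 over the protein-coding genes. For ATG12-/- 20 of the 33 members were below 0, as were 10539 of all 24647 genes tested and 6779 of the 13998 protein-coding genes.

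RPS23, RPS13 and FAU were among the members that reached an unadjusted p under 0.05 in both. RPS23 had an EV-to-cell log2 fold change of 2.64 in ATG7-/- and 2.52 in ATG12-/-, against 0.51 in WT, and the differences of 2.13 ± 0.59 and 2.01 ± 0.59 had adjusted p of 0.22 and 0.261. RPS13 had 1.45 in ATG7-/- and 1.04 in ATG12-/-, against -0.55 in WT (differences 2.00 and 1.59, adjusted p = 0.242 and 0.371). RPS4X was at 2.10 in ATG12-/-, against 3.15 in WT (difference -1.05 ± 0.31, adjusted p = 0.264). For RPS7 in ATG12-/- the difference was -5.32 ± 1.81 (adjusted p = 0.338), and it was -7.68 (adjusted p = 3.81e-05) without ATG12-/- EVs 1. The pseudogenes of RPS7 were highest in ATG12-/- EVs 2 and 3, and how reads were split was not tested.

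Each gene level is a sum over annotated transcripts, and the table held 308 transcripts of the 33 genes. Of these, 175 were above 0 in at least 1 EV library and 205 in at least 1 cell library. The transcript with the highest mean was the same in EVs and cells for 20 members and another for 13. It was annotated as protein_coding for 25 members in EVs and for 23 in cells. For RPS28 the leading transcript was RPS28-201, annotated as a retained intron, with 97.8% of the gene's TPM in EVs and 85.9% in cells. Reads were single-end and 50 bases long, and how they were split among near-identical transcripts was not tested.

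RPS15A is given first because it had the largest EV-to-cell difference. RPS15A-203 (525 nt) had 577, 503 and 412 TPM in ATG7-/- EVs, 474, 463 and 381 TPM in ATG12-/- EVs and 401, 432 and 569 TPM in WT EVs. In cells it was listed at 0 in 8 libraries and at 3.41 TPM in ATG12-/- cells 2. RPS15A-208 (797 nt, annotated as a target of nonsense-mediated decay) had 0 to 28.1 TPM in EVs and 6.29 to 18.5 TPM in cells, so the large EV-to-cell difference of RPS15A was carried by 1 transcript.

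RPS10-203 (615 nt) had 41.2 to 153 TPM in EVs and was listed at 0 in 8 cell libraries, with 11.9 TPM in WT cells 3. RPS10-207 (638 nt) was listed at 0 in 8 EV libraries, with 7.81 TPM in ATG7-/- EVs 2, and had 0 to 32.7 TPM in cells. The 2 transcripts of RPS10 thus stood nearly apart between compartments. RPS18-233 (589 nt) had 69.1 to 207 TPM in EVs and 0 to 26.2 TPM in cells, while RPS18-230 (613 nt) was listed at 0 in 7 EV libraries. RPS13-201 (491 nt) had 21.4 to 294 TPM in EVs and 11.3 to 53.3 TPM in cells, and RPS13-209 (355 nt) had 0 to 124 TPM in EVs and 33.1 to 83.5 TPM in cells. Both RPS13 transcripts overlapped between EVs and cells. The transcripts of these pairs were chosen after their values were seen, and no test was made on them.

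**Figure D2:**
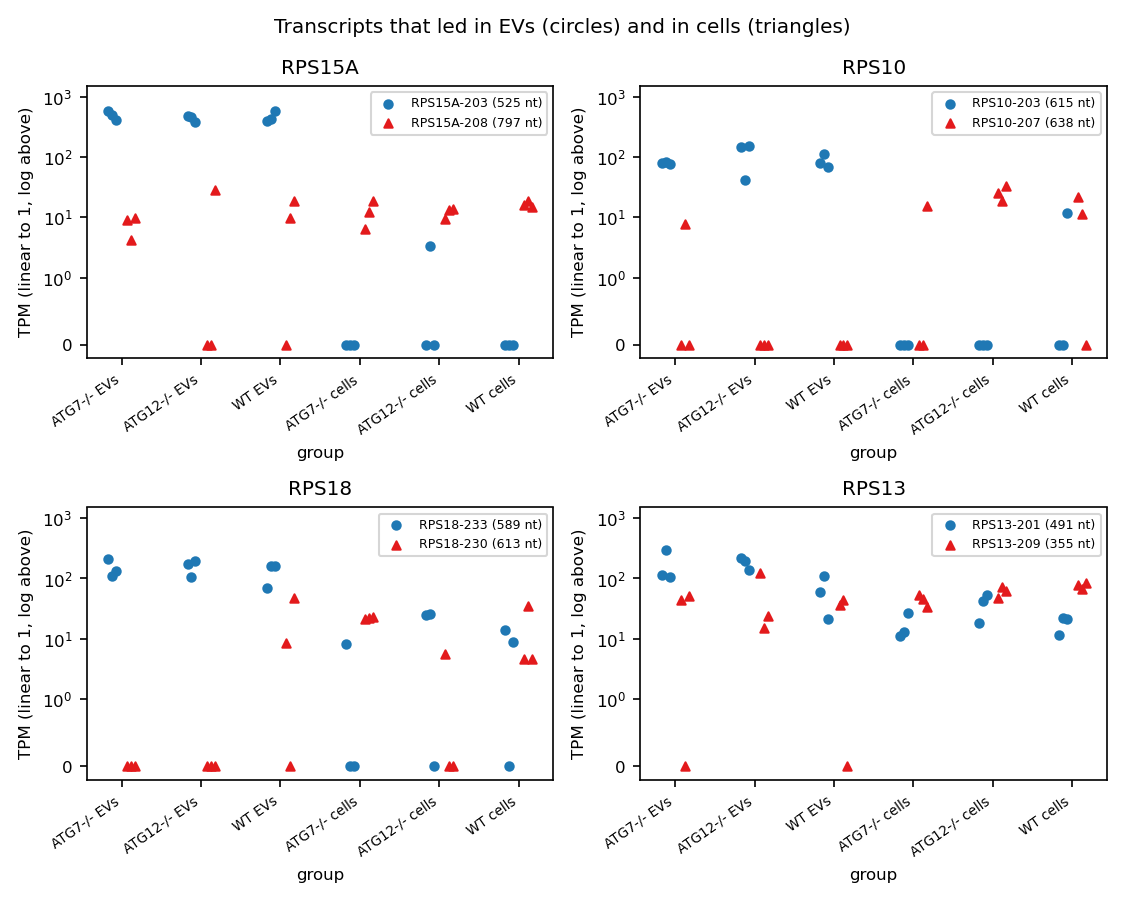
TPM of the transcript that led in EVs (circles) and the one that led in cells (triangles) for RPS15A, RPS10, RPS18 and RPS13, with 1 point per library in the 6 groups and an axis linear to 1 TPM and logarithmic above. RPS15A-203 and RPS10-203 are each listed at 0 in 8 of 9 cell libraries, and RPS13-209 has 0 to 124 TPM in EVs and 33.1 to 83.5 TPM in cells.

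Among EVs, the leading transcript of RPS4X was set beside the gene's sum, a choice made after the values were seen. RPS4X-203 (610 nt, annotated as processed_transcript) had 1148, 1038 and 860 TPM in ATG7-/- EVs and 926, 929 and 1187 TPM in ATG12-/- EVs, against 1747, 1622 and 1699 TPM in WT EVs. All 3 WT EV libraries were higher than the 6 knockout libraries. The gene sums of RPS4X were 2342, 2312 and 2234 TPM in ATG7-/- EVs and 2124, 2301 and 2747 TPM in ATG12-/- EVs, against 2689, 2616 and 2597 TPM in WT EVs. Those of ATG12-/- EVs overlapped with WT and those of ATG7-/- EVs were all below it.

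Over all members, transcripts annotated as protein_coding made up 69.7 to 75.8% of the members' TPM in the 6 knockout EV libraries, against 61.3 to 65.8% in WT EVs. Those annotated as processed_transcript made up 15.5 to 19.3% in knockout EVs, against 23.7 to 26.2% in WT EVs. In cells the processed_transcript share was 14.6 to 17.5% in ATG7-/- and 22.4 to 24.9% in ATG12-/-, against 13.0 to 17.1% in WT. The shares of ATG12-/- cells and WT EVs were close to each other and apart from the rest, and these are descriptions with no test. RPS4X-203, which was itself higher in WT EVs than in knockout EVs, is part of the processed_transcript share. The shares without it were not computed, so the difference among EVs is not shown to be spread over the members.

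Transcripts under 200 nt are shown apart because their estimates rest on few possible read positions. Only RPS2-217 (170 nt) and RPS25-205 (189 nt) are this short among the members. RPS2-217 had 483 TPM in ATG7-/- EVs 3 and 329 TPM in WT EVs 2, against 79.6 and 113 TPM in ATG7-/- cells 2 and 3 and 45.1 TPM in WT cells 2, and it was listed at 0 elsewhere. RPS25-205 had 61.0 and 108 TPM in ATG12-/- cells 2 and 3 and was listed at 0 elsewhere. The short transcripts made up 3.63% of RPS2 TPM in EVs and 10.8% in cells, and 0% of RPS25 TPM in EVs and 44.0% in cells. Without them RPS25 had a log2 fold change of 1.21 (adjusted p = 0.0011).

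Among EVs, no member was called in either knockout. The fit over the 9 EV libraries tested 17076 genes and 32 of the 33 members, since RPS27 did not pass the filter. With limma, 0 of 32 were called in ATG7-/- EVs relative to WT EVs (0.141% of all genes tested were called) and 0 of 32 in ATG12-/- EVs (0.105%). At an unadjusted p under 0.05 there were 4 members (7.41% of all genes) and 6 members (7.94%). The members' medians were 0.15 and 0.17 on the log2 scale, beside -0.00 and -0.08 over all genes tested. Both comparisons share the WT EV libraries.

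RPS28 had the smallest adjusted p of the members in both. It had 149, 96.6 and 254 TPM in ATG7-/- EVs and 146, 182 and 184 TPM in ATG12-/- EVs, against 27.4, 15.5 and 80.7 TPM in WT EVs. All 3 ATG7-/- libraries were above all 3 WT libraries, as for 6.39% of all genes tested. All 3 ATG12-/- libraries were too, as for 4.35%. The share of genes with both patterns at once was not computed. The log2 differences were 2.29 ± 0.58 (adjusted p = 0.291) and 2.41 ± 0.58 (adjusted p = 0.266). RPS2 had 2787, 2437 and 3143 TPM in ATG7-/- EVs and 2524, 2550 and 2744 TPM in ATG12-/- EVs, against 1874, 2265 and 2061 TPM in WT EVs. It too was higher in all knockout libraries, by 0.53 ± 0.15 (adjusted p = 0.354) and 0.41 ± 0.15 (adjusted p = 0.529).

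RPS13 had 196, 296 and 177 TPM in ATG7-/- EVs and 339, 240 and 163 TPM in ATG12-/- EVs, against 119, 154 and 43.6 TPM in WT EVs. RPS23 had 67.5, 46.3 and 77.6 TPM in ATG7-/- EVs and 53.1, 36.6 and 27.2 TPM in ATG12-/- EVs, against 15.9, 35.3 and 36.2 TPM in WT EVs. RPS13 did not overlap, and RPS23 overlapped in ATG12-/- EVs alone. For each knockout taken alone, the shares of all genes tested are those given with RPS28. RPS4X had the narrowest 95% intervals of the members, with a difference of -0.10 in ATG7-/- EVs (95% interval -0.39 to 0.19) and -0.07 in ATG12-/- EVs (-0.36 to 0.22). RPS7 differed by -4.28 ± 1.60 in ATG12-/- EVs (adjusted p = 0.568), and by -6.67 (adjusted p = 0.00429) without ATG12-/- EVs 1, the library in which RPS7 had 192 TPM. In ATG12-/- EVs 2 and 3, where RPS7 was near 0, its pseudogenes summed to 142 and 198 TPM. The split of reads between them was not tested, so the difference may not be one of RPS7 alone.

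In cells, 32 members were tested among 22471 genes. With limma, 0 of 32 were called in ATG7-/- cells relative to WT cells (0.2% of all genes tested were called) and 0 of 32 in ATG12-/- cells (0.134%). At an unadjusted p under 0.05 there were 4 members (14.4% of all genes) and 9 members (15%). The members' median was 0.24 in ATG7-/- cells and 0.62 in ATG12-/- cells. The second stood beside -0.07 over all genes tested and 0.06 over the protein-coding genes. In ATG12-/- cells 27 of the 32 differences were above 0, as were 10298 of all 22471 and 6805 of the 12619 protein-coding genes. The shift was not particular to the members. Of 52 large-subunit genes 42 were above 0 (median 0.54), and of 44 genes of 40S assembly 31 were (median 0.48). All 3 ATG12-/- libraries were above all 3 WT libraries for 10 members (10.7% of all genes tested) and below them for 2 (13%).

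RPS14 had the smallest adjusted p, with 151, 138 and 226 TPM in ATG12-/- cells, against 66.2, 64.4 and 50.1 TPM in WT cells. The groups did not overlap and the log2 difference was 1.50 ± 0.24 (adjusted p = 0.0838). RPS4X had 404, 475 and 654 TPM in ATG12-/- cells, against 214, 257 and 164 TPM in WT cells (1.29 ± 0.30, adjusted p = 0.144), also without overlap.

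FAU had 37.2, 21.9 and 38.8 TPM in ATG7-/- cells, against 19.7, 10.1 and 11.6 TPM in WT cells (1.26 ± 0.33, adjusted p = 0.163). RPS23 stood the other way, with 4.79, 3.74 and 7.26 TPM in ATG12-/- cells, against 13.1, 13.6 and 13.3 TPM in WT cells. Its ATG12-/- libraries were all lower than its WT libraries, by -1.20 ± 0.34 (adjusted p = 0.197), where most members had a positive difference.

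**Figure D3:**
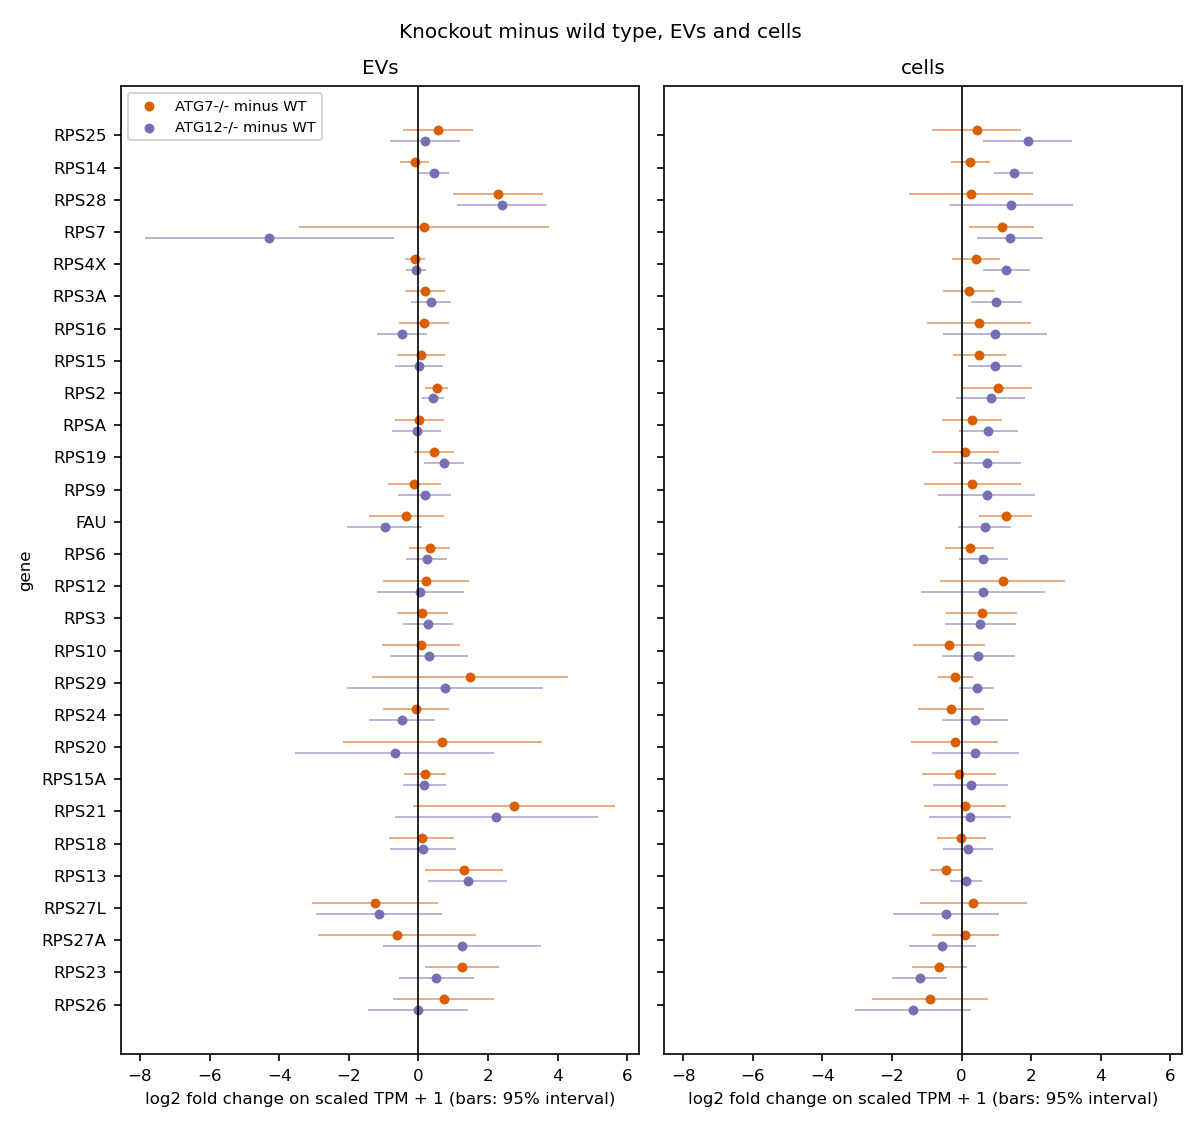
Log2 difference of 28 of the 32 tested genes, knockout minus WT, in EVs (left) and cells (right) with 95% intervals, ordered by the ATG12-/- cell difference. No gene was called, RPS28 stands at 2.29 and 2.41 in EVs, RPS7 has the widest intervals in EVs (-4.28 in ATG12-/-), and most ATG12-/- points in cells lie right of 0.

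Genes that work with the small subunit were compared next. Of 52 large-subunit genes tested, 38 rose and 2 fell in EVs relative to cells (7.66% and 36.4% of all genes tested). Their median log2 fold change was 1.66, close to the members' 1.89. The ratio of summed small-subunit to large-subunit TPM was 0.452 to 0.775 in EVs and 0.424 to 0.690 in cells, with overlap. RACK1, a scaffold protein bound to the head of the 40S subunit, averaged 1347 ± 228 TPM in EVs and 243 ± 72.8 TPM in cells (SD, n = 9 each). No EV library overlapped with a cell library, and the log2 fold change was 2.21 ± 0.11 (limma adjusted p = 1.73e-09).

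The 40S assembly genes, whose products process pre-rRNA and are not part of the finished subunit, moved in both directions. Of 44 tested, 9 rose, 8 fell and 27 passed in neither direction, with a median of -0.10. Over all genes tested 7.66% were called higher and 36.4% lower, with a median of -0.61. FBL, the methyltransferase fibrillarin, rose by 2.11 ± 0.20 (adjusted p = 2.57e-06), with 212, 330 and 388 TPM in EVs, against 27.4, 58.2 and 142 TPM in cells. IMP4, a protein of the U3 particle, rose by 2.03 ± 0.30 (adjusted p = 0.000104). UTP20, a large scaffold of the processome, fell by 1.30 on the log2 scale (adjusted p = 0.000304) and was at 0.194 to 1.46 TPM in EVs, against 2.06 to 4.93 TPM in cells. In the knockouts 0 assembly genes were called, where 0.105 to 0.2% of all genes tested were. The smallest p belonged to IMP4 in ATG7-/- cells, with 9.70, 17.1 and 26.1 TPM, against 1.69, 3.96 and 2.34 TPM in WT cells (2.34 ± 0.45, adjusted p = 0.0867).

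Among the 5 genes whose levels followed the members' sum most closely over the 18 libraries, among 2607 genes with at least 5 TPM in all of them, were RPL39, EEF1G, EEF1A1P5 and RPL4. Since EV and cell libraries form separate clusters, the correlation (Pearson's r) is given within each as a description. Over the 9 EV libraries and the 9 cell libraries it was 0.597 and 0.863 for RPL39 and 0.475 and 0.881 for RPL4. EEF1G, a subunit of an elongation factor, had 0.0841 in EVs and 0.934 in cells. The values of each point come from the same library, and TPM of 1 library sum to a fixed total.

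The strand setting of the authors' quantification is not given in the sources used here, so the values of a gene and of a transcript opposite to it cannot be told apart with certainty. Features on the other strand of the members' exons were therefore examined. GENCODE 29 annotates 27 transcripts that lie opposite at least 50 exonic bases of 10 members. Of their genes with at least 10 TPM on average, SH3D19 (opposite RPS3A) and ATG10 (opposite RPS23) had all EV libraries above all cell libraries. ATG10 had 1656, 2260 and 2821 TPM in EVs, against 591, 747 and 877 TPM in cells, so it exceeded RPS23 in all 18 libraries. TRAPPC4 (opposite RPS25) and NDUFA7 (opposite RPS28) fell in EVs, by 1.09 and 2.18 on the log2 scale.

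A search by sequence, made after these values were seen, looked for transcripts of any gene that hold at least 20 stretches of 31 bases identical to the reverse complement of a member's coding sequence. It found 18 transcripts of 12 genes, matching 9 members. They summed to 53844, 48815 and 47770 TPM in ATG7-/- EVs, 54304, 50249 and 54564 TPM in ATG12-/- EVs and 32882, 29381 and 30397 TPM in WT EVs. In cells they summed to 8690 to 13606 TPM. These few transcripts thus held more TPM than the 33 genes in every library, with a ratio of 4.01 to 4.55 in knockout EVs, 2.66 to 3.16 in WT EVs and 3.85 to 7.86 in cells.

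SH3D19-213 (503 nt, chromosome 4, minus strand) held most of this sum and averaged 35986.5 TPM in EVs and 8317 TPM in cells. AC018462.1-202 (589 nt, chromosome 2, minus strand) matches RPSA, a gene on chromosome 3, and averaged 3034 TPM in EVs and 746 TPM in cells. AC133539.1-201 (420 nt, chromosome 16, minus strand) matches RPS10, a gene on chromosome 6, and averaged 2170 TPM in EVs and 449 TPM in cells. The last 2 genes rose in EVs by 1.76 ± 0.08 and 1.97 ± 0.08 on the log2 scale (limma adjusted p = 3.93e-10 and 1.53e-10). The stretches below are from the GENCODE 29 transcripts, 5′ to 3′, and show how the features relate to the members. Capitals mark 40 bases of each feature that are the exact reverse complement of the 40 in capitals of the member named after it.
SH3D19-213: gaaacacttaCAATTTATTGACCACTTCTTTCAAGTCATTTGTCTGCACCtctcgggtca
RPS3A-201: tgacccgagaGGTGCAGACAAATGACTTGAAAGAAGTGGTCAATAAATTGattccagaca
AC018462.1-202: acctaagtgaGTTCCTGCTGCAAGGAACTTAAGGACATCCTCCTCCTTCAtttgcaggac
RPSA-201: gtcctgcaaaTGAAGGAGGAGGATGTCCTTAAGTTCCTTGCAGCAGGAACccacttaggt
AC133539.1-201: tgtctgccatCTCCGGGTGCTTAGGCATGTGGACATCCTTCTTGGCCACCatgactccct
RPS10-201: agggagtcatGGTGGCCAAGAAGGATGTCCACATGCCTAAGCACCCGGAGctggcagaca
The longest exact match was 213 bases for SH3D19-213, 68 for AC018462.1-202 and 63 for AC133539.1-201. The part of the strand setting in the level of these features and of the members was not tested.

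Same-strand copies can share reads with the members too. Transcripts of 358 other genes hold stretches of 31 bases of the members' coding sequence, and 351 of the 377 transcripts are annotated as pseudogenes. They summed to 2235 to 5045 TPM in EVs and 1233 to 2210 TPM in cells, against 10401 to 12864 TPM and 1148 to 3253 TPM for the members. In cells the copies were thus at a level close to that of the genes themselves. Levels of single members and of their copies are uncertain to the extent that the authors' counting split reads between them.

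Of 413 pseudogenes named for members, RPS28P7 was the most abundant. It had 2081, 1851 and 2880 TPM in ATG7-/- EVs and 1936, 2380 and 2325 TPM in ATG12-/- EVs, against 639, 1897 and 758 TPM in WT EVs, and 478 to 1050 TPM in cells. RPS28P7 exceeded RPS28 in all 18 libraries, but RPS28 was lowest in WT EVs 2, where RPS28P7 was the highest of the 3 WT EV libraries. RPS23P8 had 68.6 to 306 TPM in EVs and 14.9 to 53.2 TPM in cells, without overlap. RPS27AP13 was listed at 0 in ATG7-/- EVs, at 22.2, 0 and 0 TPM in ATG12-/- EVs and at 349, 0 and 361 TPM in WT EVs, and had 85.0 to 302 TPM in cells.

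**Figure D4:**
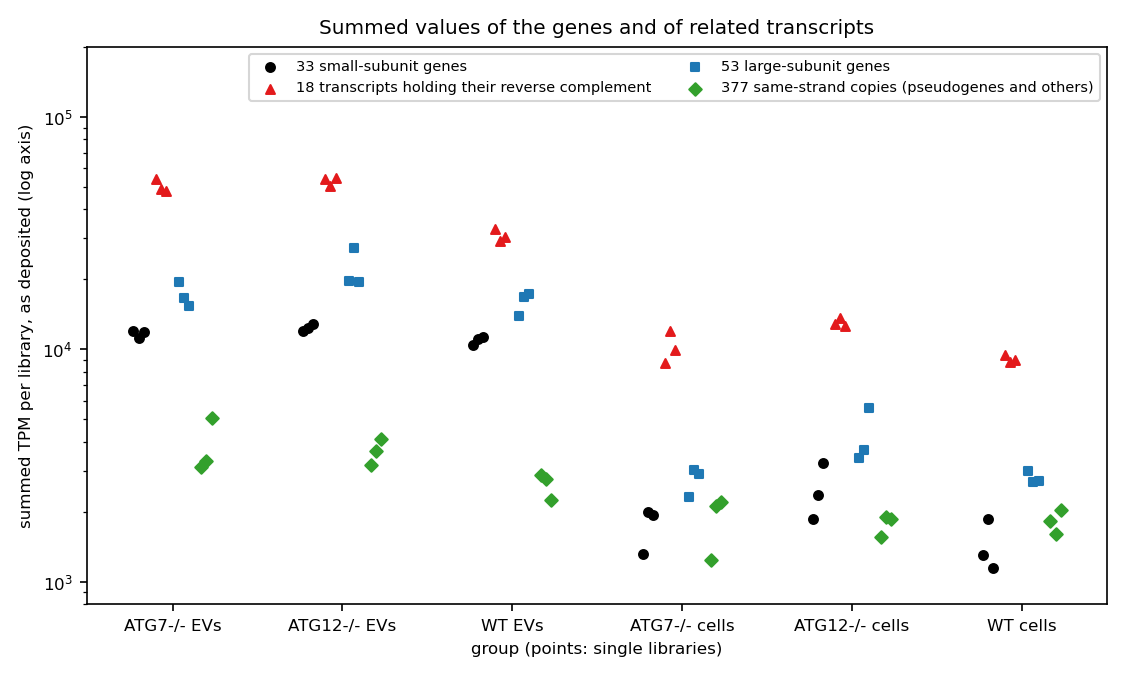
Summed TPM per library (log axis) of the 33 small-subunit genes, the 53 large-subunit genes, the 18 transcripts that hold the members' reverse complement and the 377 same-strand copies, with 1 point per library in the 6 groups. The reverse-complement transcripts lie above the 33 genes in all libraries (29381 to 54564 TPM in EVs and 8690 to 13606 TPM in cells), and WT EVs are the lowest of the EV groups for them.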

How the data were processed

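Large RNA of EVs and cells was measured in 18 libraries, 3 in each of 6 groups, and groups were taken from the sample labels. The labels' protocols give total RNA, a stranded total RNA kit with 22 PCR cycles and single-end reads of 50 bases. The authors deposited 1 table of TPM (transcripts per 1000000) for 203027 transcripts, and the submitters' processing notes list Salmon 0.14. The sources used here do not give the strand setting or the index. TPM sum to a fixed total, so depth is unknown.

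TPM of 202941 transcripts matched to GENCODE 29 (GRCh38) were summed to 57865 genes. The other 86 held at most 0.0384% of a library. Libraries were scaled by a median of ratios, and log2(TPM + 1) was fitted with limma 3.58.1 (trend) in R 4.3.3 on genes that reached 1 TPM in 3 or more libraries. EV-to-cell comparisons and interactions used all 18 libraries, and knockout comparisons used the 9 EV or the 9 cell libraries. P-values were adjusted by Benjamini-Hochberg over all genes tested, with a threshold of 0.05. Joins and figures used Python 3.11.15 with pandas 2.3.3, numpy 2.4.6 and matplotlib 3.10.9. The fit was tested on simulated data.

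All 33 members enter the sums, counts and medians, and single results of some members and other genes are not reported here. Beyond the members, the genes considered were RACK1, the assembly genes with the smallest p (3 for EVs against cells, 2 for each knockout comparison), the 5 genes most like the members' sum, and features that share sequence with members. The members and lists were chosen with earlier results of these data known. Alternatives covered the pseudocount, the filter, the scaling, short transcripts, protein_coding transcripts, sample weights, the replicate number and each library in turn.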

Additional observations from a re-analysis of the deposited data

How the results depend on the processing

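Of the 26 members called in EVs against cells, 21 kept the call in every alternative, and RPS3, RPS13, RPS25, RPS26 and RPS27L lost it in at least 1. The members called lower were 1 without the filter and 0 without scaling, and in WT 0 without scaling and 0 with sample weights. Without scaling the median of all genes moved to -0.47, against -0.61. With only protein_coding transcripts the differences of RPS20, RPS25 and RPS7 were -0.38, -1.82 and -0.43, RPS28 gave no value, and the cause was not tested. Leaving out 1 library gave 22 to 24 members higher and 0 to 2 lower over all genotypes, 18 to 21 higher in ATG7-/-, 13 to 19 higher and 0 to 1 lower in ATG12-/-, and 17 to 19 higher and 0 to 2 lower in WT. The lowest ATG12-/- count of 13 was without ATG12-/- cells 1. For RPS21 the difference ranged between -0.29 and 0.68, and for RPS29 between -0.44 and 0.53. Leaving out 1 library gave 0 to 1 members lower for the ATG12-/- interaction and 0 to 1 for ATG12-/- EVs against WT EVs, the 1 being RPS7 without ATG12-/- EVs 1. Deviations from the group means, over all genes of the 18-library fit, had correlations of -0.034 to 0.047 between samples with the same replicate number. Samples with different numbers were not compared in this way. These correlations therefore cannot show whether samples with the same number were handled together, and the main fit used no pairing. With the replicate block 23 members were higher and 2 lower over all genotypes, 21 higher in ATG7-/-, 17 in ATG12-/- and 18 in WT, with 0 called in the interactions and knockout comparisons. TPM keep no depth, so what depth limits cannot be given.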
